A study of Mus musculus with 18 samples.

Results

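The Cyp4a genes encode cytochrome P450 enzymes of the endoplasmic reticulum that hydroxylate the end of medium- and long-chain fatty acids. Their 6 members Cyp4a10, Cyp4a12a, Cyp4a12b, Cyp4a14, Cyp4a31 and Cyp4a32 were taken by gene symbol from the 54838 genes of the expression table, and all 6 were found. The samples were 18 C57BL/6 mouse livers and liver tumours in 6 groups of 3, every one with an age of 36 weeks in its labels. WT mice were compared with GKO mice, in which miR-181ab1 (the Mir181a-1 and Mir181b-1 genes) is deleted in every tissue. Tumours and non-tumour livers were from WT and GKO mice that received diethylnitrosamine (DEN), a carcinogen of the liver, as 1 dose of 25 mg/kg on postnatal day 12, and normal livers were from untreated WT and GKO mice. The DEN mice were males according to the methods of the study. Beyond replicate numbers, the labels tie no sample to a mouse, so it is not known which tumours and non-tumours share an animal, and p-values measure the spread between these samples. Expression is given as TPM, reads per gene corrected for gene length and sequencing depth, so levels can be compared between genes.

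The terminal, or omega, hydroxylation done by Cyp4a enzymes is the entry to a side route of fatty acid breakdown. The hydroxylated fatty acid is oxidised by alcohol and aldehyde dehydrogenases to a dicarboxylic acid, which is shortened in peroxisomes. In rodent liver Cyp4a10 and Cyp4a14 are classical targets of the nuclear receptor PPAR alpha, which senses fatty acids and is activated by fasting and by fibrate drugs, while Cyp4a12a is known as a male-biased enzyme of liver and kidney that also hydroxylates arachidonic acid. Cyp4a31 and Cyp4a32 are close copies of Cyp4a10 with less known functions.

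All 6 genes lie in 1 cluster on chromosome 4 of mm10 and are protein coding. In order along the chromosome they are Cyp4a12a (115299046 to 115332815, plus strand), Cyp4a12b (115411624 to 115439034, plus), Cyp4a14 (115486200 to 115496142, minus), Cyp4a10 (115518264 to 115533649, plus), Cyp4a31 (115563649 to 115579015, plus) and Cyp4a32 (115600969 to 115621602, plus). Coding sequences in the GENCODE mouse release 21 annotation were 98.5% identical between Cyp4a12a and Cyp4a12b, 97.2% between Cyp4a10 and Cyp4a32, 96.6% between Cyp4a10 and Cyp4a31 and 96.0% between Cyp4a31 and Cyp4a32. Cyp4a14 stood apart, with 74.8% to 76.0% identity to the other members. The most different stretch of 60 coding bases of the Cyp4a10 group lies in exon 2 and is shown to let a reader see how short the differences are on which a read is assigned. Capitals mark, in Cyp4a10, each base that differs in either copy and, in the copies, each base that differs from Cyp4a10.
Cyp4a10, chr4:115519654-115519713, plus strand: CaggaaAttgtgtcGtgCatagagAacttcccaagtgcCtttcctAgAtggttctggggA
Cyp4a31, chr4:115565034-115565093, plus strand: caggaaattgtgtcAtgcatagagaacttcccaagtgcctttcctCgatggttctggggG
Cyp4a32, chr4:115602284-115602343, plus strand: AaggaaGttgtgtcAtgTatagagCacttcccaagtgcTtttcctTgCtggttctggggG

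In this stretch Cyp4a31 differed from Cyp4a10 at 3 bases and Cyp4a32 at 9. In a stretch of exon 8, shown because a read within it can be assigned to none of the 3 genes over the others, the sequences were identical.
Cyp4a10, chr4:115525559-115525618, and the same letters in Cyp4a31 and Cyp4a32: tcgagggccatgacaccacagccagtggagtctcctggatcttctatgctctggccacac

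The most different 60 bases of the pair Cyp4a12a and Cyp4a12b lie in exon 6, with 4 differences, in capitals.
Cyp4a12a, chr4:115326628-115326687, plus strand: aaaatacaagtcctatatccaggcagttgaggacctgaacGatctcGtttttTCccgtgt
Cyp4a12b, chr4:115432881-115432940, plus strand: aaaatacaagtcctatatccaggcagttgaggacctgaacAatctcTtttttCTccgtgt

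Of all windows of 100 bases in the annotated transcripts, 35.8% of Cyp4a12a and 36.2% of Cyp4a12b occurred in both, so values of these genes are uncertain as single genes and are also given as a sum. The share was 20.1% in Cyp4a32, 12.7% in Cyp4a10 and 8.2% in Cyp4a31, each shared within the Cyp4a10 group, and 0% in Cyp4a14. With windows of 150 bases the shares were 25.6%, 25.9%, 8.0%, 4.3% and 4.2% in that order of genes, and 0% in Cyp4a14. Read length and the treatment of reads with several matches are not given in the sources used here. The neighbouring Cyp4a29 and Cyp4a30b were at 0 TPM in 17 of 18 samples each and at 0.0626 and 0.0798 TPM in the remaining one. Cyp4b1, at the far end of the cluster, ranged from 2.61 to 17.6 TPM.

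Depth, recovered from the TPM and the gene lengths, was 11925033 to 20751390 reads on genes, and the median sample had 16973815. Of the deleted genes, Mir181b-1 was at 0 TPM in all 18 samples and Mir181a-1 in 17, with 1 read in GKO tumour 3, so these values check no genotype label. All 6 members passed the filter of a mean of 0.5 TPM in every comparison. Expression of 4 tumour marker genes summed to 1805 to 11940 in the tumours and 4.66 to 97.6 in the livers. The summed TPM of 6 hepatocyte markers was 192000 to 228100 in tumours and 64030 to 95580 in livers, and 3 kidney tubule markers, tested because kidney also expresses Cyp4a genes, summed to 0.204 TPM or less. WT non-tumour 2 and GKO tumour 1 stood apart from the other samples of their groups in Cyp4a levels, and WT tumour 3 in Cyp4a32 and in genes of fatty acid oxidation. WT tumours 1 and 2 were the most alike pair (r = 0.982 across genes on the log2 scale, 0.919 and 0.921 with tumour 3, and 0.929 to 0.979 in pairs of the other groups). Many results that change without one of these samples are given both ways, but not all of those in the gene lists.

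Cyp4a10 and Cyp4a14 were the abundant members in liver. Over the 12 normal and non-tumour livers, the median level was 1301 TPM for Cyp4a14, 1008 for Cyp4a10, 177 for Cyp4a12a, 65.2 for Cyp4a12b, 33.1 for Cyp4a32 and 19.8 for Cyp4a31. Cyp4a14 was above Cyp4a10 in 10 of 12 livers, Cyp4a10 above Cyp4a12a in 12, and each later member above the next in 11. Within each pair of neighbours in this order, the ranges of TPM over the livers overlapped. Together the 6 genes reached 2936 ± 299 TPM in normal livers of WT and 2767 ± 444 in those of GKO mice (mean ± SD, n = 3), and Cyp4a10 and Cyp4a14 made up 80.0% to 91.4% of the sum in every liver. The sum was 1571 ± 1269 TPM in WT non-tumours, 64.9 ± 34.7 in WT tumours, 2824 ± 1112 in GKO non-tumours and 681 ± 539 in GKO tumours (SD, n = 3).

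**Figure D1:**
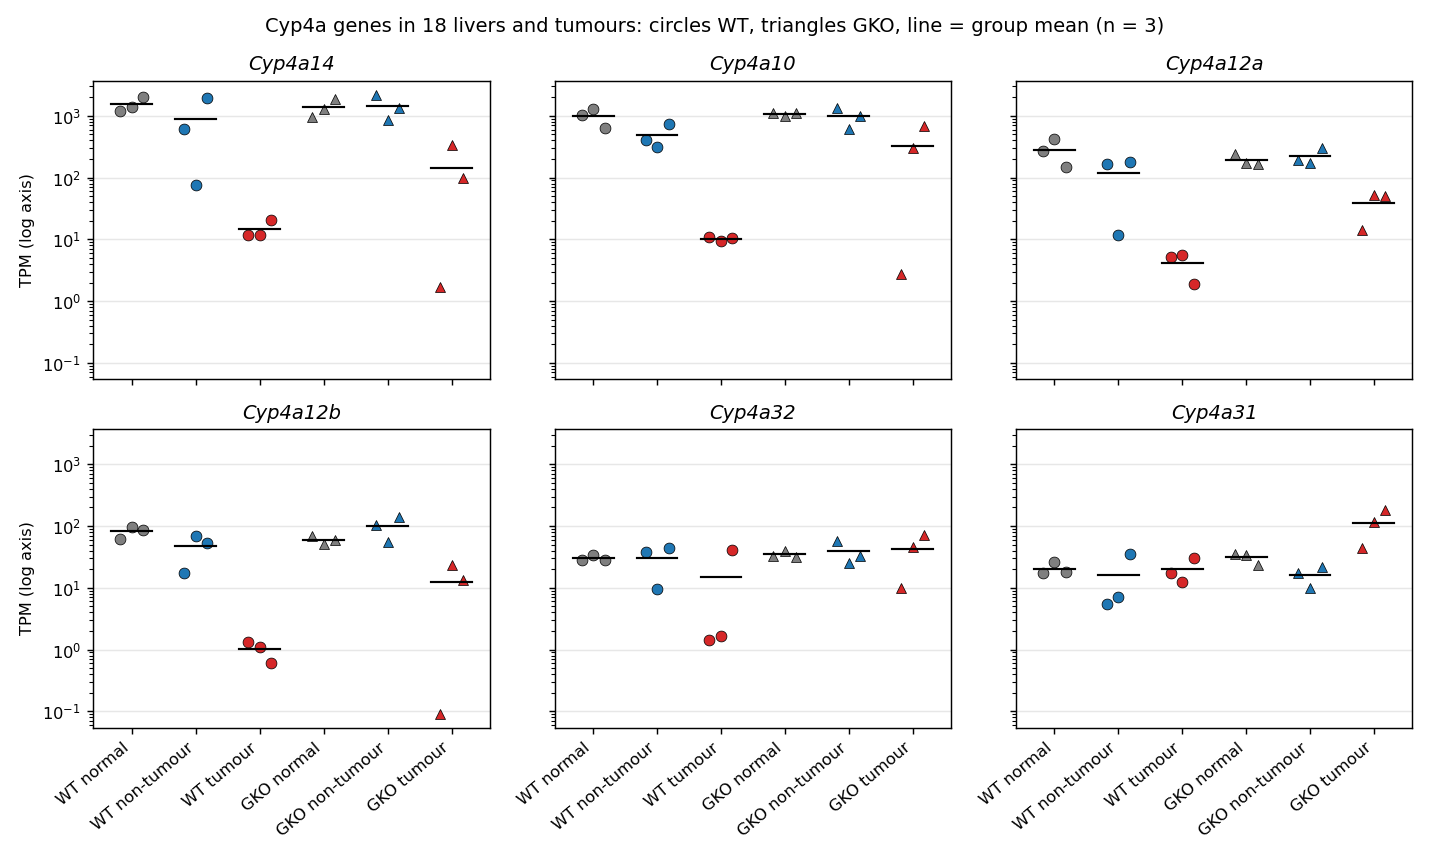
TPM of each Cyp4a gene (log axis) in the 6 groups, with circles for WT samples, triangles for GKO samples and a line at the mean of 3 samples. Cyp4a10 and Cyp4a14 lie between 9.35 and 20.3 TPM in the WT tumours, while GKO tumours range from 1.71 to 685 TPM, and Cyp4a31 is highest in GKO tumours.

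The summed level by sample showed how far single samples differed within a group. WT non-tumours 1, 2 and 3 had 1255, 489 and 2968 TPM, WT tumours 48.0, 41.9 and 105, GKO non-tumours 3931, 1708 and 2833, and GKO tumours 72.8, 872 and 1099. All 3 WT tumours were below all WT non-tumours, with a mean 24.2-fold lower, or 32.5-fold lower against WT non-tumours 1 and 3. GKO tumours were likewise below all GKO non-tumours, 4.15-fold on the mean, or 2.87-fold without GKO tumour 1. GKO tumour 1 lay within the range of the WT tumours and GKO tumours 2 and 3 far above it, so the groups overlapped, with a mean 10.5-fold higher in GKO tumours and 15.2-fold higher without GKO tumour 1. Summing over fewer genes, the pair Cyp4a12a and Cyp4a12b was 31.6-fold lower in WT tumours than non-tumours and 6.31-fold lower in GKO tumours. Cyp4a10, Cyp4a31 and Cyp4a32 together were 11.8-fold and 2.15-fold lower. In GKO this last sum overlapped, with 57.0, 464 and 935 TPM in the tumours and 1425, 637 and 1063 in the non-tumours. In bulk tissue, fewer cells of a type and less RNA per cell cannot be told apart.

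WT tumours were compared with WT non-tumours to see which Cyp4a genes differ in tumours that have miR-181ab1. Cyp4a10 and Cyp4a12b fell, while Cyp4a14 and Cyp4a12a were lower in every tumour than in every non-tumour without passing the threshold. At an adjusted p under 0.05 by limma, 2 of 6 members were called, both lower, where 4.23% of the 14003 genes tested were called in either direction and 2.07% lower. Voom on the recovered reads called 3 members, and 554 of all 14002 genes. The median difference was -4.14 for the members and -0.02 for all genes tested, on the log2(TPM + 1) scale used for all differences here. In 4 of 6 members the tumours lay below the non-tumours without overlap, against 13.9% of all genes.

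Cyp4a10, a PPAR alpha-induced fatty acid hydroxylase, had 411, 315 and 726 TPM in WT non-tumours 1, 2 and 3, and 10.96, 9.35 and 10.5 TPM in the tumours. All tumours were low and close to each other, and the difference was -5.34 (standard error 0.33, adjusted p = 0.00112 by limma). The adjusted p stayed between 0.000508 and 0.0121 under all 14 alternatives. Cyp4a14, induced by the same signals, had 620, 76.2 and 1930 TPM in the non-tumours and 12.0, 11.7 and 20.3 in the tumours. The tumours were again uniformly low, but WT non-tumour 2 had a far lower level than the others, and the difference of -4.90 (standard error 1.07) had an adjusted p of 0.0568 by limma. Leaving out WT non-tumour 2 changed it to -6.17 (adjusted p = 0.00613 by limma), and 5 of 14 alternatives passed the threshold, with a range of adjusted p from 0.00613 to 0.193.

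Cyp4a12a, the male-biased member, had 164, 12.0 and 179 TPM in the WT non-tumours and 5.14, 5.53 and 1.92 in the tumours. The lowest non-tumour, again number 2, was still above the highest tumour. The difference was -3.89 (standard error 1.0, adjusted p = 0.0918 by limma), and -5.14 with an adjusted p of 0.00447 without WT non-tumour 2; 2 of 14 alternatives passed, with adjusted p from 0.00398 to 0.257. Its near-identical neighbour Cyp4a12b had 17.6, 69.2 and 53.3 TPM in the non-tumours and 1.31, 1.12 and 0.615 in the tumours, without overlap. It fell by 4.38 (standard error 0.49, adjusted p = 0.00613 by limma), and all 14 alternatives passed. In WT non-tumour 2 the ratio of Cyp4a12a to Cyp4a12b was 0.173, where it was between 1.69 and 9.28 in the other 11 livers.

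Cyp4a31 and Cyp4a32 were not called, and Cyp4a31 was the member with a positive difference. It had 5.43, 7.08 and 35.4 TPM in the WT non-tumours and 17.2, 12.6 and 30.1 in the tumours, and these ranges overlapped (difference 0.68, standard error 0.68, adjusted p = 0.640 by limma). Cyp4a32 had 37.6, 9.65 and 43.8 TPM in the non-tumours and 1.42, 1.66 and 41.5 in the tumours. Tumour 3 was as high as the non-tumours and tumours 1 and 2 far below, and the difference of -2.02 (standard error 1.16) had an adjusted p of 0.391 by limma. Leaving out WT tumour 3 changed it to -3.38 (adjusted p = 0.0305 by limma).

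GKO tumours were compared with GKO non-tumours for the same question in mice without miR-181ab1. Cyp4a12a fell and Cyp4a31 rose, and Cyp4a10 and Cyp4a14 varied widely among the tumours. By limma and by voom 2 of 6 members were called. Limma called 11.7% of 14092 genes, 3.97% lower and 7.75% higher as shares of all genes. Voom called 1786 of 14091 genes. The members' median was -3.01 and that of all genes 0.20. In 3 members the tumours lay below the non-tumours without overlap (12.7% of all genes), and in 1 they lay above (25.7% of all genes).

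Cyp4a10 had 1350, 602 and 1008 TPM in GKO non-tumours 1, 2 and 3 and 2.72, 301 and 685 in the tumours. Tumour 3 was within the range of the non-tumours and tumour 1 lower than any WT tumour. The difference was -3.35 (standard error 1.74, adjusted p = 0.224 by limma), and -1.04 with an adjusted p of 0.224 without GKO tumour 1. Cyp4a14 had 2209, 841 and 1328 TPM in the non-tumours and 1.71, 333 and 99.7 in the tumours, all below the non-tumours. Its difference was -4.91 (standard error 1.57, adjusted p = 0.0832 by limma), and -2.88 with an adjusted p of 0.0401 without GKO tumour 1; 3 of 13 alternatives passed, with adjusted p from 0.0178 to 0.204. Cyp4a10 exceeded Cyp4a14 in GKO tumours 1 and 3 and was below it in GKO tumour 2.

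Cyp4a12a had 192, 174 and 303 TPM in the GKO non-tumours and 13.9, 51.4 and 51.0 in the tumours. All tumours were below all non-tumours and it fell by 2.66 (standard error 0.51, adjusted p = 0.0218 by limma), a call kept in 10 of 13 alternatives and lost without GKO non-tumour 2 (adjusted p = 0.0543) or 3 (0.0917) and with no filter on low values (0.0625). Cyp4a12b had 106, 54.6 and 139 TPM in the non-tumours and 0.0904, 23.7 and 13.4 in the tumours. The value of GKO tumour 1 is worth 2 reads, under the floor of 3 reads set for detection. The groups did not overlap, and the difference was -3.69 (standard error 1.07, adjusted p = 0.0657 by limma), or -2.32 with an adjusted p of 0.0340 without GKO tumour 1.

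Cyp4a31 was the member that rose. It had 17.1, 9.87 and 21.8 TPM in the GKO non-tumours and 44.4, 118 and 179 in the tumours, all tumours above all other 15 samples of the series. The difference was 2.59 (standard error 0.52, adjusted p = 0.0249 by limma), and 8 of 13 alternatives passed, with adjusted p from 0.00775 to 0.0759. It was not called with no filter on low values (adjusted p = 0.0697), without GKO tumour 2 (0.0559) or 3 (0.0706), or without GKO non-tumour 2 (0.0759) or 3 (0.0686). In GKO tumour 1, 1030 reads were assigned to Cyp4a31 and 53 to its paralog Cyp4a10 by the counting. The part of shared reads in the level of Cyp4a31 was not tested. Cyp4a32 had 57.3, 25.6 and 33.3 TPM in the non-tumours and 9.87, 45.9 and 71.3 in the tumours, with overlap (difference -0.18, standard error 0.68, adjusted p = 0.877 by limma).

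**Figure D2:**
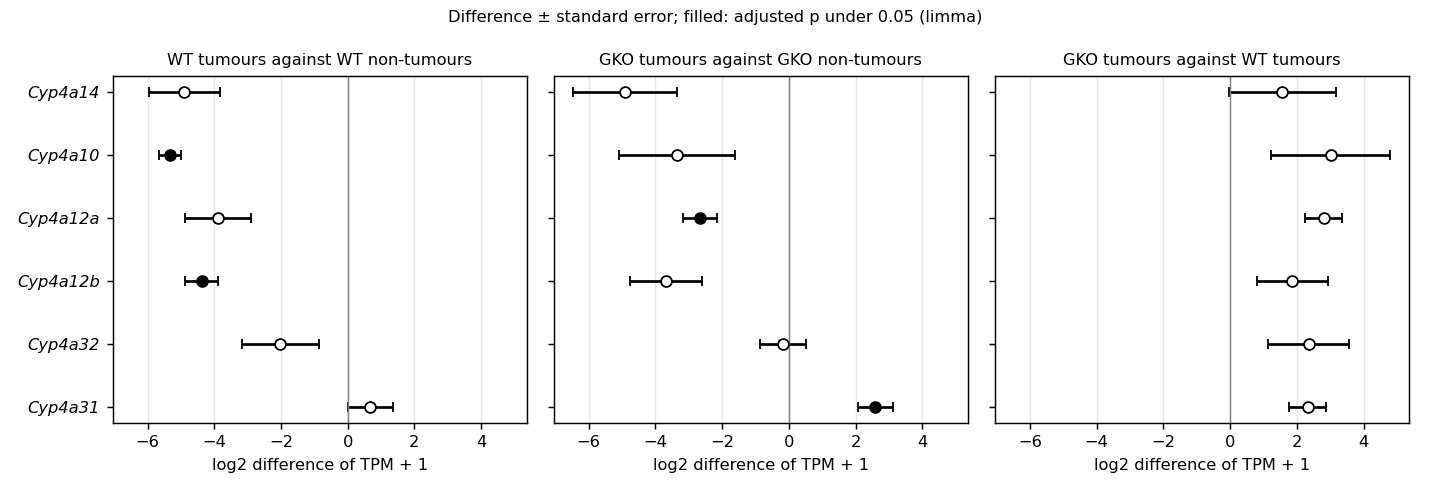
Difference (log2 of TPM + 1, with standard error) of each Cyp4a gene between tumours and non-tumours of each genotype and between GKO and WT tumours; filled points have an adjusted p under 0.05. Cyp4a10 and Cyp4a12b are called in WT, Cyp4a12a and Cyp4a31 in GKO, and none between the tumours.

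The tumour effect in GKO minus that in WT tests whether the genotypes differ in it. By limma 0 of 6 members were called, where it called 0.0142% of all genes, and voom on the recovered reads also called 0. At an unadjusted p under 0.05 limma gave 0 members, beside 10.5% of all genes. The difference of effects was 1.91 (standard error 0.94) for Cyp4a31, 1.99 (2.02) for Cyp4a10 and -0.01 (2.15) for Cyp4a14, so calls made in 1 genotype were not shown to differ between them. The lowest adjusted p was 0.479, for Cyp4a31. Without GKO tumour 1 the difference of effects was 4.30 for Cyp4a10 (adjusted p = 0.117 by limma), 2.02 for Cyp4a14 (0.607) and 2.47 for Cyp4a31 (0.527), and leaving out each sample in turn gave 0.53 to 4.30 for Cyp4a10. Without WT non-tumour 3 it was 1.13 for Cyp4a31.

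GKO tumours were compared with WT tumours directly to see how tumours without and with miR-181ab1 differ. The paper reports that GKO tumours were smaller and less proliferative, so genotype and tumour progression cannot be told apart in this comparison. All 6 members had a higher mean in GKO tumours, with differences from 1.57 for Cyp4a14 to 3.02 for Cyp4a10 and a median of 2.34 (0.09 for all genes), but 0 of 6 passed the threshold. Of all genes 0.0215% were called. At an unadjusted p under 0.05 limma gave 2 members, Cyp4a12a and Cyp4a31, where 8.87% of all genes had one, and voom called 0. These 2 were also the members whose GKO tumours all lay above the WT tumours, against 9.88% of all genes.

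Cyp4a12a had 5.14, 5.53 and 1.92 TPM in WT tumours and 13.9, 51.4 and 51.0 in GKO tumours, a difference of 2.81 (standard error 0.56, adjusted p = 0.302 by limma). Cyp4a31 had 17.2, 12.6 and 30.1 TPM and 44.4, 118 and 179 TPM, a difference of 2.33 (standard error 0.55, adjusted p = 0.374 by limma). For Cyp4a10 the GKO tumours spread from 2.72 to 685 TPM, and the difference of 3.02 had a standard error of 1.78 and an adjusted p of 0.658 by limma. Leaving out GKO tumour 1 gave 5.34 for Cyp4a10 (standard error 0.38, adjusted p = 0.0315), the only call for a member in this comparison under the 14 alternatives. The others then had 3.60 for Cyp4a14, 3.24 for Cyp4a12b, 3.42 for Cyp4a12a, 3.17 for Cyp4a32 and 2.89 for Cyp4a31, with adjusted p from 0.0623 to 0.662 by limma. With every alternative, the difference ranged from 0.12 to 3.60 for Cyp4a14 and from 0.99 to 3.24 for Cyp4a12b.

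The make-up of the family differed between livers and tumours. In the 12 livers Cyp4a31 was 0.433% to 1.46% of the summed TPM. In WT tumours 1, 2 and 3 it was 35.8%, 30.1% and 28.7%, and in GKO tumours 61.1%, 13.5% and 16.3%. Every tumour was thus above every liver in this share, a description that follows both from a lower sum and from the levels of Cyp4a31 itself. Cyp4a10 and Cyp4a14 together made up 47.8%, 50.1% and 29.4% of the sum in the WT tumours and 6.08%, 72.6% and 71.4% in the GKO tumours. Cyp4a32 was 39.5% of the sum in WT tumour 3 and 2.96% and 3.97% in WT tumours 1 and 2. The median levels in WT tumours were 17.2 TPM for Cyp4a31, 11.9 for Cyp4a14, 10.5 for Cyp4a10, 5.14 for Cyp4a12a, 1.66 for Cyp4a32 and 1.12 for Cyp4a12b. In GKO tumours they were 301 TPM for Cyp4a10, 118 for Cyp4a31, 99.7 for Cyp4a14, 51.0 for Cyp4a12a, 45.9 for Cyp4a32 and 13.4 for Cyp4a12b. Over all 6 tumours Cyp4a31 was above Cyp4a32 in 5, Cyp4a32 above Cyp4a14 in 2, Cyp4a14 above Cyp4a10 in 4, Cyp4a10 above Cyp4a12a in 5 and Cyp4a12a above Cyp4a12b in 6, and in each of these pairs the ranges overlapped.

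**Figure D3:**
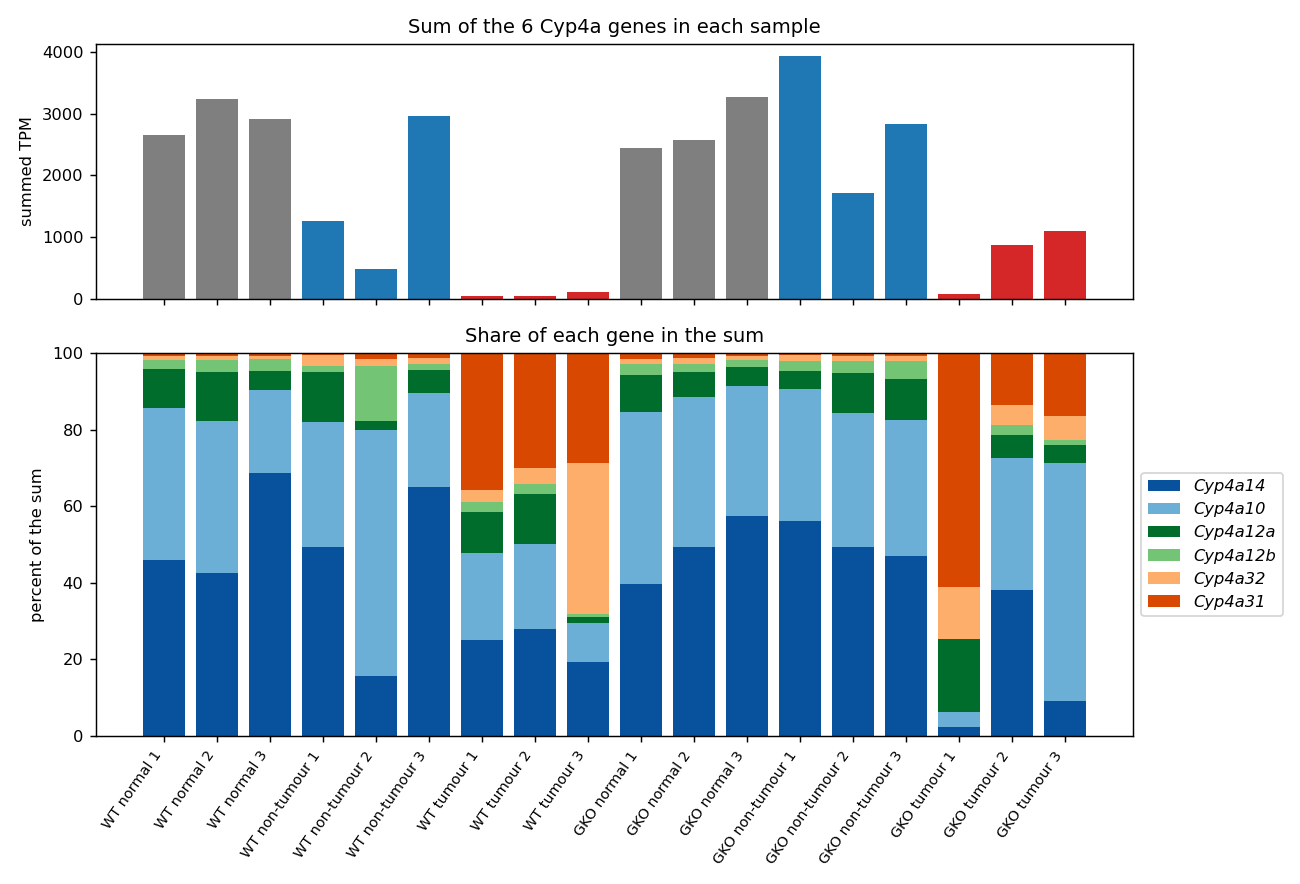
Summed TPM of the 6 Cyp4a genes in each of 18 samples (top) and the percent of that sum from each gene (bottom). Cyp4a31 takes 13.5% to 61.1% of the sum in the tumours and at most 1.46% in the livers.

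Without tumour tissue, the genotypes and the DEN treatment gave no call for any Cyp4a gene. Between GKO and WT normal livers, Cyp4a10 had 1106, 1008 and 1116 TPM in GKO and 1049, 1291 and 629 in WT, and Cyp4a14 had 970, 1274 and 1877 TPM in GKO and 1219, 1381 and 2008 in WT. Both overlapped, 0 of 6 members were called by limma or by voom (1 and 2 at an unadjusted p under 0.05, beside 3.96% of all genes by limma), and 0% of all genes were called by limma. The gene with the unadjusted p was Cyp4a31, with 35.7, 34.1 and 23.4 TPM in GKO and 17.0, 25.9 and 17.7 in WT (difference 0.60, standard error 0.24, adjusted p = 0.999 by limma). Cyp4a12a was at 192 ± 40.5 TPM in GKO and 278 ± 134 in WT normal livers (SD, n = 3), and Cyp4a12b at 59.5 ± 9.0 and 81.8 ± 17.5.

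Between GKO and WT non-tumours all 6 members had higher means in GKO, with a median of 1.11 beside -0.15 for all genes, and again 0 were called by limma or voom (1 and 2 at an unadjusted p under 0.05, beside 5.80% of all genes by limma), as were 0% of all genes. Cyp4a10 showed a difference of 1.04 (standard error 0.42, adjusted p = 0.643 by limma), with GKO non-tumour 2 inside the WT range. WT non-tumours against WT normal livers had negative differences in all 6 members (median -1.02, all genes 0.32), with 0 called by limma or voom and 0.00744% of all genes called by limma. At an unadjusted p under 0.05 there were 1 and 2 members, and 24.4% of all genes by limma. GKO non-tumours against GKO normal livers had a median of 0.06 (all genes 0.08), 0 members called by limma or voom with 1 at an unadjusted p under 0.05 in each (5.20% of all genes by limma), and 0% of all genes called. That member was Cyp4a31, with 17.1, 9.87 and 21.8 TPM in non-tumours, all below the 35.7, 34.1 and 23.4 of the normal livers (difference -0.94, standard error 0.32, adjusted p = 0.906 by limma).

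The other genes of the pathway were read from lists named by their roles. Counts in these and the later lists stand beside the shares of all genes. Limma called 4.23% of all genes in WT tumours against non-tumours and 11.7% in GKO. At an unadjusted p under 0.05 the shares were 19.9% and 31.7%. Without WT non-tumour 2 or WT tumour 3 limma called 6% and 9.68% in WT, and without GKO tumour 1 it called 7.12% in GKO. Among 8 tested Cyp4 genes outside the family, Cyp4f14, a leukotriene hydroxylase, and its relative Cyp4f15 fell in WT tumours by 2.95 and 2.13, and Cyp4f16 rose by 2.7. In GKO tumours Cyp4f16 rose by 2.32 and Cyp4v3, a fatty acid hydroxylase of several tissues, fell by 1.51. Cyp4f16 had 1.78, 0.893 and 2.02 TPM in WT non-tumours and 13.8, 16.0 and 16.2 in WT tumours, and 1.82, 1.86 and 1.48 in GKO non-tumours and 15.8, 12.0 and 10.5 in GKO tumours. Both sets of tumours were thus uniformly high.

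In the oxidation of omega-hydroxy fatty acids, 3 of 7 genes fell in WT tumours and 1 of 7 in GKO tumours, with medians of -1.20 and -1.0. Aldh3a2, the fatty aldehyde dehydrogenase that forms the acid, had 200, 326 and 231 TPM in WT non-tumours and 35.9, 39.6 and 12.2 in the tumours, and fell by 3.20 (standard error 0.47, adjusted p = 0.0158 by limma). In GKO it had 173, 114 and 160 TPM in the non-tumours and 40.3, 93.3 and 102 in the tumours, below them without overlap (difference -1.0, standard error 0.39, adjusted p = 0.128 by limma). Adh4, an alcohol dehydrogenase that accepts long chains, fell by 3.43 in WT and by 1.40 in GKO tumours, and Aldh1a1, a retinal dehydrogenase, fell by 3.68 in WT tumours.

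In the peroxisomal route 4 of 17 genes fell in WT tumours with a median of -1.46, and 15 of 17 had an unadjusted p under 0.05, as had 19.9% of all genes. Without WT tumour 3, which had a summed level of 2591 TPM in these genes beside 844 and 824 in tumours 1 and 2, 13 of 17 fell, where 9.68% of all genes were called. Those called were Acaa1b, a peroxisomal thiolase (-3.69), Acot3 and Acot4, peroxisomal thioesterases (-3.69 and -1.71), and Pex11a, a factor of peroxisome division (-2.15). In GKO tumours 1 of 17 was called, Abcd2, a fatty acid transporter of peroxisomes, which rose by 3.34, and the median was -0.41 (-0.14 without GKO tumour 1, with the same gene called). Ehhadh, the bifunctional enzyme of the route, was not called, at -2.31 (adjusted p = 0.115) in WT and -0.43 (adjusted p = 0.594) in GKO by limma.

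Of 18 other PPAR alpha target genes, 3 fell in WT tumours (Acot1 at -4.22, Cpt2 at -1.36 and Acadm at -1.24; median of the list -1.28), and in GKO tumours Cpt1a and Acot2 rose by 1.67 and 1.21 and Cpt2 fell by 1.03 (median 0.04). Without GKO tumour 1 none of these 3 was called and Plin2, a lipid droplet protein, was, with a median of 0.52. In WT 1 of 18, Acot1, was called without WT non-tumour 2, and 9 of 18 fell without WT tumour 3, whose summed level in these genes was 12910 TPM beside 3174 and 3819 in tumours 1 and 2. Cpt1a admits fatty acids to mitochondria and Cpt2 releases them inside, while Acot1 and Acot2 are thioesterases. None of the 15 genes for PPARs, their partners and coregulators was called in either comparison by limma or voom, with 2 in WT and 1 in GKO at an unadjusted p under 0.05. Ppara itself had 17.5, 7.79 and 21.2 TPM in WT non-tumours and 5.01, 5.40 and 18.3 in WT tumours, which overlapped (difference -0.76, standard error 0.55, adjusted p = 0.502 by limma). In GKO it had 17.9, 14.1 and 20.7 TPM in non-tumours and 11.5, 13.1 and 34.0 in tumours, with a mean 1.11-fold higher and an adjusted p of 0.999 by limma. None of 6 genes for P450 partners and haem supply was called by limma in either comparison, and voom called 0 and 1. At an unadjusted p under 0.05 there were 4 in WT and 2 in GKO. Without WT tumour 3, 1 of 6, Cyb5a, was called lower in WT tumours, where 9.68% of all genes were called. Por, the reductase that passes electrons to all of these P450 enzymes, was at 92.4 ± 25.9 TPM in WT tumours and 242 ± 112 in WT non-tumours (SD, n = 3, adjusted p = 0.143 by limma), and at 179 ± 83.0 and 236 ± 121 in GKO (adjusted p = 0.699).

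Between GKO and WT tumours no gene of these lists was called by limma or voom, and all 17 peroxisomal genes and 17 of 18 other PPAR alpha targets had a positive difference, with medians of 1.05 and 0.72. Of the former, 7 had an unadjusted p under 0.05, and of the latter 5, beside 8.87% of all genes. Without GKO tumour 1 Acot1 was called, and without WT tumour 3 Abcd2, Acaa1a, Ech1, Hsd17b4, Acot2 and Angptl4 were called, all higher in GKO tumours, where 0.0358% and 1.05% of all genes were called. In GKO tumour 1 the other PPAR alpha targets lay a median of 1.12 below the mean of GKO tumours 2 and 3 on the log2 scale.

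**Figure D4:**
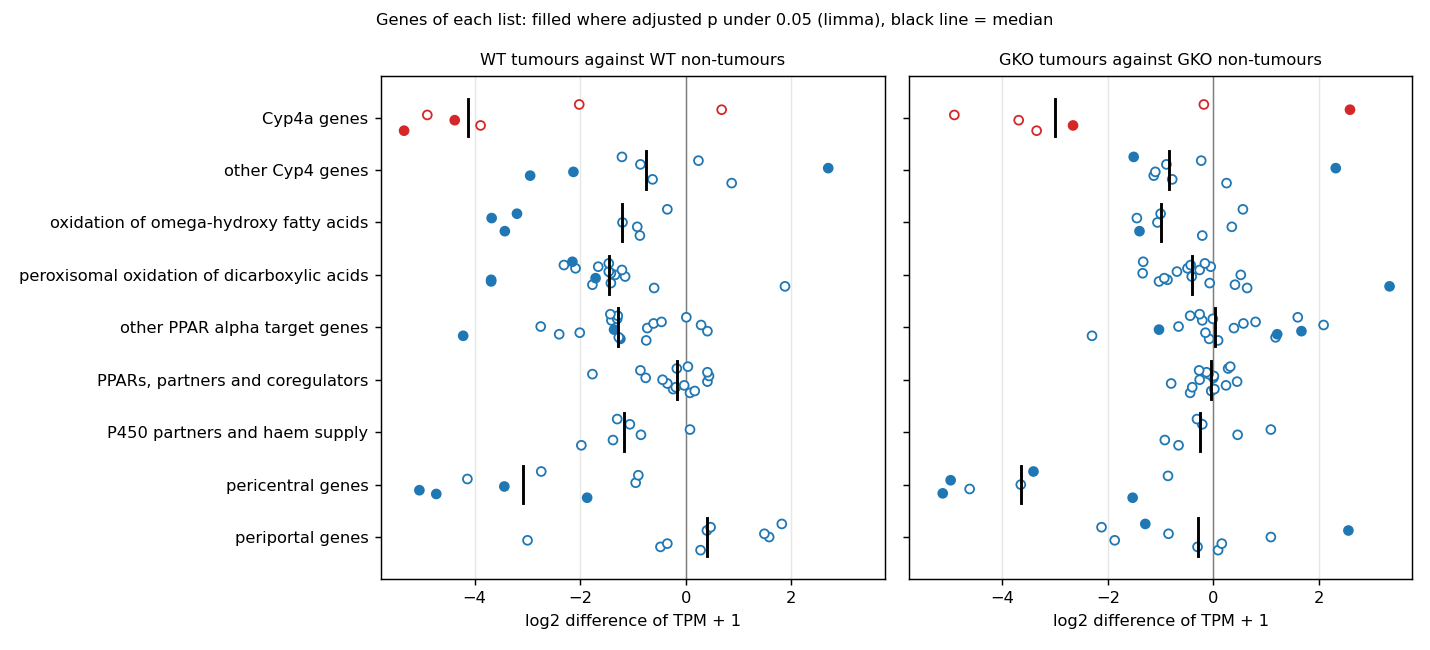
Differences (log2 of TPM + 1) of the Cyp4a genes (red) and of genes in 8 pathway and zonation lists (blue) between tumours and non-tumours of WT (left) and GKO (right); filled points have an adjusted p under 0.05 and black lines are medians. The Cyp4a medians of -4.14 and -3.01 lie beside pericentral medians of -3.09 and -3.65.

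Liver lobules are zoned, with some enzymes made around the central vein and others around the portal tract. In WT tumours 4 of 8 pericentral genes fell (Cyp2e1 at -5.05, Cyp1a2 at -4.73, Glul at -3.44 and Axin2 at -1.87), and in GKO tumours 4 of 7 fell (Cyp1a2 at -5.13, Oat at -4.98, Slc1a2 at -3.41 and Axin2 at -1.53). The summed TPM of the pericentral genes was 521, 502 and 171 in WT tumours and 32.6, 1902 and 531 in GKO tumours. Among GKO tumours, tumour 1 was thus lowest and tumour 2 highest, as for Cyp4a14 but not Cyp4a10, which was highest in tumour 3. Cyp2e1 alone made 1446 TPM of the sum in GKO tumour 2. Among WT tumours the order was not shared: tumour 3 was lowest in this sum and highest in Cyp4a14 (12.0, 11.7 and 20.3 TPM). Of 9 periportal genes 0 were called in WT by limma or voom (2 at an unadjusted p under 0.05), while Cyp2f2 was called lower without WT non-tumour 2. In GKO Hsd17b13, a lipid droplet enzyme, rose by 2.56 and Sds, serine dehydratase, fell by 1.29. Without GKO tumour 1 Sds was no longer called, Hsd17b13 stayed called and Cyp2f2 was called lower, where 7.12% of all genes were called. The part of these genes in the Cyp4a results was not tested.

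Genes that differ between the sexes in mouse liver were listed because Cyp4a12a is one of them. Of the other male-biased genes 1 of 10 fell in WT tumours (Mup20, a major urinary protein, at -2.73) and 7 of 11 in GKO tumours, led by Elovl3, a fatty acid elongase, with a difference of -5.35. Without WT non-tumour 2, 4 of 11 fell in WT tumours, where 6% of all genes were called. Without GKO tumour 1, 5 of 11 fell in GKO tumours, where 7.12% were called. Of the female-biased genes 1 of 6 rose in WT and 2 of 9 in GKO tumours. Cyp2a4, a steroid hydroxylase, rose by 6.84 in WT and by 6.99 in GKO tumours, and Cyp2b9 by 5.22 in GKO tumours. Without GKO tumour 1, 4 of 6 rose in GKO tumours, where 7.12% of all genes were called. Without WT tumour 3, 2 of 7 rose in WT tumours, where 9.68% were called. Igf1, an insulin-like growth factor driven by growth hormone, fell in both, with differences of -3.67 in WT and -1.92 in GKO tumours, the latter no longer called without GKO tumour 1. None of 14 clock genes in WT and of 13 in GKO was called by limma or voom, with 1 and 3 at an unadjusted p under 0.05. Between GKO and WT tumours 10 of 14 clock genes had an unadjusted p under 0.05, beside 8.87% of all genes, and 0 were called.

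Markers of other cell types were read beside these results. The sum of 7 stellate cell and fibroblast markers was 37.1 to 61.2 TPM in WT tumours and 30.5 to 56.9 in WT non-tumours, and 70.6 to 158 in GKO tumours and 47.7 to 68.5 in GKO non-tumours. The sum of 5 cholangiocyte markers was 37.6 TPM in GKO tumour 1 and 959 and 549 in GKO tumours 2 and 3, the samples with high Cyp4a10, and 22.2 to 92.2 in the other 15 samples. A sum can rest on 1 abundant marker. Without GKO tumour 1, only Spp1 of 4 tested cholangiocyte markers was called higher in GKO tumours than non-tumours (median of the list 1.37), where 7.12% of all genes were called. Macrophage markers (6 genes) summed to 61.9 to 142 TPM in WT tumours, 134 to 284 in WT non-tumours, 73.9 to 236 in GKO tumours and 102 to 474 in GKO non-tumours. Endothelial markers (6 genes) ranged from 62.6 to 78.6, 34.6 to 63.2, 59.5 to 92.7 and 56.4 to 74.4 TPM in the same order. T cell markers (4 genes) stayed at or under 10.7 TPM and B cell markers (4 genes) at or under 38.0 TPM in all samples. No marker of these types was at 0 in all samples of a group. The part of these cells in the Cyp4a differences was not tested.

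The genes most like each of 3 members were sought by Pearson's r of log2(TPM + 1) over the 18 samples, among 13914 genes that averaged 0.5 TPM or more. For Cyp4a10 they were Acot1 (0.968), a cytosolic thioesterase, 1700080G11Rik (0.940), Rps4l (0.936), Hsdl2 (0.930) and Glul (0.926). For Cyp4a14 they were Glul (0.965), the glutamine synthetase of pericentral hepatocytes, the glutamate transporter Slc1a2 (0.958), the retinol saturase Retsat (0.952), 1700080G11Rik (0.950) and Cyp2c37 (0.946). For Cyp4a12a they were the major urinary protein Mup3 (0.956), Gm21320 (0.941), the lipase Ddhd2 (0.941), Bag4 (0.935) and Dcn (0.925), which encodes decorin. The samples share groups, so the gap between tumours and livers sets much of these values. Over the 12 livers alone, r with Cyp4a10 was 0.44 for Acot1, 0.69 for 1700080G11Rik, 0.85 for Rps4l, 0.23 for Hsdl2 and 0.70 for Glul. In the order above it was 0.83, 0.95, 0.96, 0.62 and 0.78 for the genes alike to Cyp4a14, and 0.97, 0.89, 0.75, 0.83 and 0.81 for those alike to Cyp4a12a. WT non-tumour 2 is far below the other livers in both Cyp4a12a and Mup3. It is also the lowest of the 12 livers in Cyp4a14 (76.2 TPM) and in each gene alike to Cyp4a14 or Cyp4a12a. Its levels were 1.37 TPM for Slc1a2, 89.7 for Retsat, 159 for Glul and 91.2 for Cyp2c37. How far this sample sets the r over livers was not tested.

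**Figure D5:**
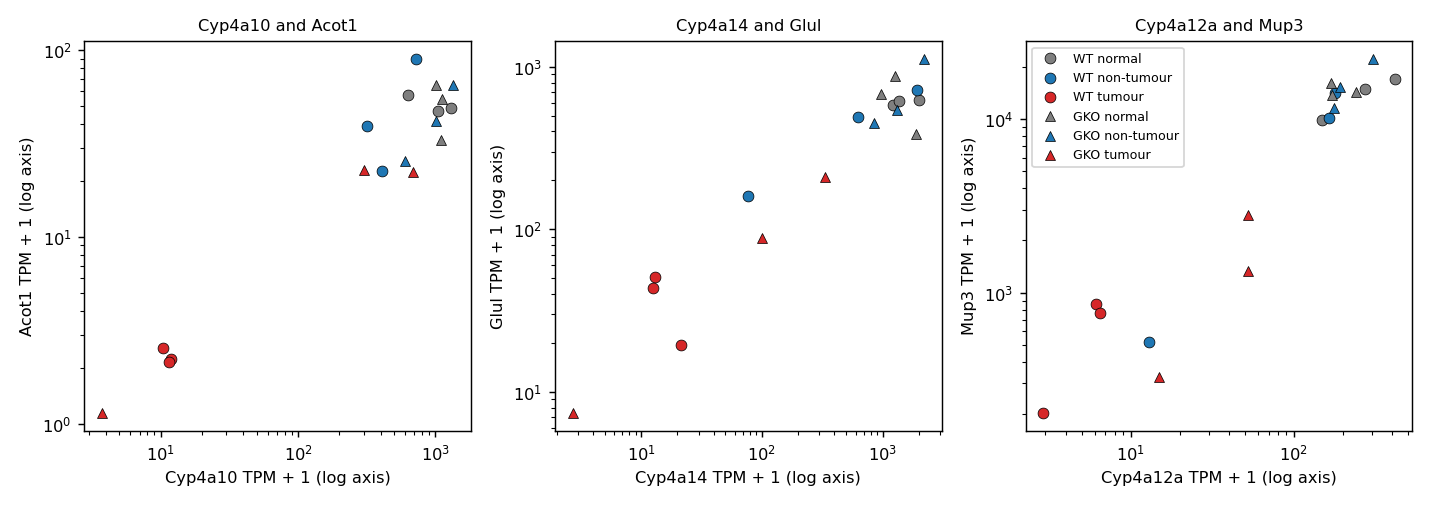
TPM + 1 (log axes) of Cyp4a10, Cyp4a14 and Cyp4a12a against the gene most like each over 18 samples, with circles for WT, triangles for GKO and colours for tissue. GKO tumour 1 lies at the low end of the first 2 panels, and in the third panel WT non-tumour 2 lies among the tumours.

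Glul and Acot1 were chosen for their likeness over all 18 samples, those that stood apart included, so their values are a description. Glul had 488, 159 and 715 TPM in WT non-tumours 1, 2 and 3 and 6.38, 209 and 87.7 in GKO tumours, where Cyp4a14 had 620, 76.2 and 1930 TPM and 1.71, 333 and 99.7. Acot1 had 0.138, 21.9 and 21.3 TPM in the GKO tumours and 1.24, 1.55 and 1.16 in the WT tumours, so that, as for Cyp4a10, GKO tumour 1 was below all WT tumours and GKO tumours 2 and 3 were above them. Among the members themselves, Cyp4a10, Cyp4a12a, Cyp4a12b and Cyp4a14 had r between 0.85 and 0.95 over 18 samples, Cyp4a32 had 0.56 to 0.69 with these 4, and Cyp4a31 had -0.14 to 0.01. Over the 12 livers, Cyp4a31 had r of 0.43 to 0.76 with the same 4 members, and Cyp4a12a with Cyp4a12b had 0.14. Paralogs can share reads, which bears on r between Cyp4a10, Cyp4a31 and Cyp4a32 and between Cyp4a12a and Cyp4a12b.

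WT non-tumour 2 and GKO tumour 1 differed from their groups in more than Cyp4a genes. Against the mean of the other 5 non-tumours on the log2 scale, WT non-tumour 2 lay a median of 1.47 lower in periportal genes. It lay 1.19 lower in male-biased and 0.25 higher in pericentral genes. Both lists were mixed in this sample. Of the male-biased genes, Mup20 had 16090 TPM beside 7884 and 8204 in WT non-tumours 1 and 3, while Elovl3 had 4.26 beside 193 and 90.6. The pericentral genes also went both ways. Glul (159 TPM) and Slc1a2 (1.37) were the lowest of all non-tumours, Cyp1a2 (1245) and Lgr5 (2.21) the highest, and Cyp2e1 (8049) lay within the range of the others. GKO tumour 1 lay a median of 2.56 lower in pericentral genes and 3.59 higher in female-biased genes than GKO tumours 2 and 3. The Cyp4a12a level of WT non-tumour 2, 12.0 TPM, compares with 148 to 415 TPM in the other 11 livers.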

How the data were processed

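RNA-seq of 18 mouse livers and tumours was used, with groups taken from the labels. The authors aligned reads with STAR 2.7.3a to mm10 and counted them with featureCounts 2.0.0, and deposited TPM per gene. Annotation, strand, read length and the use of multi-mapping reads are not given in the sources used here. Reads per gene were recovered as TPM times exonic length (GENCODE M21) for 54809 of 54838 genes.

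Each comparison was fitted to log2(TPM + 1) of its own samples with limma 3.58.1 (lmFit, eBayes with trend; R 4.3.3). Genes had a mean of at least 0.5 TPM, and calls an adjusted p under 0.05 (Benjamini-Hochberg over all genes tested). The fit was tested on simulated data. Tables, sequence comparisons and plots used Python 3.11.15, numpy 2.4.6, pandas 2.3.3, Biopython 1.88 and matplotlib 3.10.9. Alternatives were a pseudocount of 0.1, no filter, a mean of 5 TPM, median centring, all 18 samples in one fit, a replicate block, voom on recovered reads, WT tumours 1 and 2 averaged, and leaving out each sample. Deviations of same-numbered samples from their group means correlated above 0.1 in every pair between GKO and WT tumours (0.101, 0.120 and 0.197), and the replicate block changed no call there. In no other comparison did every pair do so, but single pairs did. Between tumours and non-tumours, pairs 1, 2 and 3 had 0.005, -0.008 and 0.249 in WT and 0.124, 0.069 and 0.041 in GKO. Lists without WT non-tumour 2, WT tumour 3 or GKO tumour 1 were added after seeing the data.

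The named genes were the members, Ppara, Por, Aldh3a2 and Ehhadh, the called genes with the largest rise and fall in each pathway list, the 5 genes most alike to each of 3 members, and the neighbours of the cluster. Other called genes of a list were named after their values were seen, and some genes that the rule or lists held are not reported here. The members and lists were chosen with earlier results of these data known.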

Additional observations from a re-analysis of the deposited data

How the results depend on the processing

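Of the alternatives for single Cyp4a genes, 635 kept direction and side of the threshold, 15 passed it anew, 8 no longer passed and 20 reversed. The number of members called was 2 in WT tumours against non-tumours, 3 by voom, 4 with all 18 samples in one fit, and 2 to 4 when each sample was left out (4 without WT non-tumour 2). In GKO it was 2, with 0 without a filter on low values, 4 with all 18 samples in one fit, and 0 to 4 when each sample was left out (4 without GKO tumour 1, 1 without GKO tumour 3, 0 without GKO non-tumour 2 or 3). Between GKO and WT tumours it was 0, with 0 to 1 when each sample was left out (1 without GKO tumour 1). Of all genes, limma called 6% in WT without WT non-tumour 2. Without GKO tumour 1 it called 7.12% in GKO tumours against non-tumours and 0.0358% between the tumours. The share with all 18 samples in one fit is not given here. The summed TPM of WT normal livers without Cyp4a12a and Cyp4a12b was 2576, beside 2936 for all 6. The cause was not tested.

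No label ties replicate numbers to mice. With the replicate block 3 members were called in WT tumours (Cyp4a14 at -4.90, adjusted p = 0.0393 by limma) and 2 in GKO tumours.

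Differences that reversed were not called in any setting. With median centring, GKO non-tumours against normal livers gave -0.08 for Cyp4a14 and -0.02 for Cyp4a32. Leaving out each sample there gave -0.46 to 0.12 for Cyp4a10, -0.05 to 0.36 for Cyp4a12a, -0.32 to 0.37 for Cyp4a14 and -0.23 to 0.33 for Cyp4a32. It gave -0.74 to 0.63 for Cyp4a32 in GKO tumours against non-tumours. Between GKO and WT non-tumours it gave -0.06 to 1.19 for Cyp4a31 and -0.14 to 0.89 for Cyp4a32, and between normal livers -0.11 to 0.40 for Cyp4a10 and -0.43 to 0.04 for Cyp4a14. For Cyp4a32 in WT non-tumours against normal livers it gave -0.61 to 0.43. For the difference of tumour effects it gave -0.19 to 2.06 for Cyp4a12b and -1.46 to 2.02 for Cyp4a14.

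Single-member values of Cyp4a12b in GKO tumour 1 rest on 2 reads. With 3 samples a group, the fits show only differences well above the spread between samples.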
